A study of Homo sapiens with 8 samples.

Results

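The HOX genes encode homeodomain transcription factors that lie in 4 clusters, HOXA on chromosome 7, HOXB on chromosome 17, HOXC on chromosome 12 and HOXD on chromosome 2. Within a cluster the genes are numbered 1 to 13 as paralogs, and all are transcribed in the same direction. Genes of low number at the 3′ end of a cluster are known to act in anterior tissues and to be activated first in the embryo, and genes of high number at the 5′ end act in posterior tissues such as the limb ends, the gut end and the urogenital tract. In pluripotent cells the clusters are held by Polycomb proteins, with little transcription. Retinoic acid and WNT signals open them from the 3′ end, and anterior HOX genes mark the progenitors at the back of the early heart field.

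The clusters were followed by ATAC-seq, in which the Tn5 transposase inserts adapters into open DNA, through the differentiation of RUES2, a human embryonic stem cell line in common use. The stages were undifferentiated cells (hESC, day 0, taken after a day in E8 medium with CHIR-99021, a WNT pathway agonist), mesoderm (MES, day 2, after CHIR-99021 at a higher dose), cardiac progenitors (CP, day 5, after Xav-939, an inhibitor of WNT signalling) and cardiomyocytes (CM, day 14, in medium with B27). There were 2 replicate libraries of each stage, all from 1 cell line, and the labels do not say whether they came from separate differentiations. The deposited lists hold 55873 to 156282 peaks a library, with fold enrichment of the pileup over the local background and −log10 p and q values, and no reads. The number of reads is therefore unknown. Depth can be compared only through the mean background recovered for each library, 2.54 to 4.62 extended reads a position. A missing peak says only that the caller's threshold was not reached in that library. In these bulk cultures, fewer cells with an open site and a less open site in each cell cannot be told apart.

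All 39 protein-coding HOX genes of GENCODE were taken by symbol, and 38 of them are described. Peaks of the 8 lists were merged where they overlapped by at least 1 bp, which gave 285909 regions. The HOX regions are the 153 that overlap the windows from 20 kb before the first to 20 kb after the last gene of each cluster. There were 36 in the HOXA window (chr7:27072993-27220091), 56 in HOXB (chr17:48508526-48748750), 25 in HOXC (chr12:53918831-54076030) and 36 in HOXD (chr2:176072721-176210907). Each was assigned to the nearest HOX TSS, taken from the Ensembl canonical transcript, which gave 37 of the 38 genes at least 1 region and HOXA6 none. HOXB13, a gene of the prostate, had the most, with 12, and no other HOX gene lies in the long gap between it and HOXB9. The midpoints of 63 regions lay in exons, 59 in introns of protein-coding or lncRNA genes and 31 between genes.

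The sequences on which the results turn are shown first, each as 300 bases of the plus strand of GRCh38 around the summit of the region in the library of highest fold. Capitals mark matches, on either strand, to 7 consensus motifs that were searched. The CTCF core and the DR5 retinoic acid element are given by name. The motif of the CDX proteins was searched as TTTATNG and that of HOX proteins bound with PBX as TGATNNAT. For the GATA factors the letters were AGATAA. For the T-box factors, which act in mesoderm and heart, they were AGGTGT. For TCF and LEF, the factors through which WNT signals act, they were CTTTGAT. No motif contains another whole, but adjoining matches may share bases. The first region, 8666 bases 3′ of the HOXB1 TSS (window chr17:48522185-48522484, between genes), is shown because a peak appeared there during differentiation, and the second, at the HOXB1 TSS (chr17:48530945-48531244), because a peak was no longer listed there.
HOXB1 3′ region: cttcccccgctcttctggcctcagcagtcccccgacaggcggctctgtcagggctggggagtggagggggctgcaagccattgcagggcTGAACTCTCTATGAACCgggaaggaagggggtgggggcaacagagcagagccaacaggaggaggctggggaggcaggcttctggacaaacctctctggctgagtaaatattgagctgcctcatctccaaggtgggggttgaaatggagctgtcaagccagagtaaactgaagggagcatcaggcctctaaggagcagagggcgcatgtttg
HOXB1 TSS region: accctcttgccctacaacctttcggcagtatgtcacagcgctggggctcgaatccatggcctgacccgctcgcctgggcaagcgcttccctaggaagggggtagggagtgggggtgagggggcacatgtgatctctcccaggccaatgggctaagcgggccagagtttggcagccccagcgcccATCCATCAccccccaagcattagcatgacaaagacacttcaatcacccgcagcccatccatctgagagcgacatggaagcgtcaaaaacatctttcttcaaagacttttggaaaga
The next pair are the regions whose fold enrichment rose between hESC and CM. One lies 4319 bases 5′ of the HOXA7 TSS, between HOXA7 and HOXA9 (chr7:27160983-27161282), and the other at the HOXA13 TSS (chr7:27200098-27200397, the bases just 5′ of the TSS).
HOXA7 to HOXA9 region: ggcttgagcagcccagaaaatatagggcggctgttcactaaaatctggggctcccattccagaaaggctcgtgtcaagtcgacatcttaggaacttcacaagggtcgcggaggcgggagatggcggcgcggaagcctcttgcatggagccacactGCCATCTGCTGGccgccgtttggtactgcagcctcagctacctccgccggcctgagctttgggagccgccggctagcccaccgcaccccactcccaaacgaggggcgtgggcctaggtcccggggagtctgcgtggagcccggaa
HOXA13 TSS region: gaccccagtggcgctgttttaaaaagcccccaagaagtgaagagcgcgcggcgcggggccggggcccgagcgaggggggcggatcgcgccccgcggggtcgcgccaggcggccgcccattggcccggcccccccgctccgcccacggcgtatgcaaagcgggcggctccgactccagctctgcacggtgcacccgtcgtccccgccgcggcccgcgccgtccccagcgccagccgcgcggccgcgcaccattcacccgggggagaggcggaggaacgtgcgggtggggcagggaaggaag
Of the regions with a peak in all 8 lists, the one of highest mean fold in HOXB and in HOXD is shown as an open site of every stage. They lie in an intron of the lncRNA gene LINC02086 between HOXB9 and HOXB13 (chr17:48678438-48678737) and in an intron of HOXD3 10697 bases 5′ of the HOXD4 TSS (chr2:176140488-176140787).
HOXB9 to HOXB13 region: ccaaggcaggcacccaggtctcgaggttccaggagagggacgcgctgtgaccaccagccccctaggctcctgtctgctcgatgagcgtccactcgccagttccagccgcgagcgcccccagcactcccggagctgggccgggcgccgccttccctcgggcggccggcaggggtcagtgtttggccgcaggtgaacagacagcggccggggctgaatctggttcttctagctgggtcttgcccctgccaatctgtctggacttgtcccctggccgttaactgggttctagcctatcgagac
HOXD3 intron region: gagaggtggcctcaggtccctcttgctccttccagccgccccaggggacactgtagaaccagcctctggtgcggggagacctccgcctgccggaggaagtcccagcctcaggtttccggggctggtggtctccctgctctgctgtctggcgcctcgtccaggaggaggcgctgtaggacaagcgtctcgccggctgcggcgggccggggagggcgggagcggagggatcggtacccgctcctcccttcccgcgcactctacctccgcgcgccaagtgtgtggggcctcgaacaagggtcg
The last is the region of highest −log10 q among those found at 1 stage only, a MES region 3842 bases 3′ of the HOXD1 TSS (chr2:176192347-176192646, in an exon of a gene without a symbol).
HOXD1 3′ region: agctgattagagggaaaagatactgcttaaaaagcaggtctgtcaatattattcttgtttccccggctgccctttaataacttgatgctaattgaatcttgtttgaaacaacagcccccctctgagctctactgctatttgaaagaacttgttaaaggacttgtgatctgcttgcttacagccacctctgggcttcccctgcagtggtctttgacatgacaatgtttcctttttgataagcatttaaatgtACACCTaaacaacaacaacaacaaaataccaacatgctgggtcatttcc

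The regions at HOXB1 and the one between HOXA7 and HOXA9 were picked for display after their values were seen. The HOXB1 3′ region holds a DR5 retinoic acid element, a direct repeat of the half-site bound by retinoic acid receptors. The motif was found in 2 of the 153 HOX windows (1.31%) and in 0.114% of all 285909 windows of the same length. The region between HOXA7 and HOXA9 holds a CTCF core, the site of the architectural protein CTCF, which was found in 2 of 153 HOX windows (1.31%) and 2.09% of all. The HOXB1 TSS region holds a HOX-PBX site, which 6 HOX windows (3.92%) and 8.84% of all windows had, and the HOXD1 3′ region a T-box site, which 19 (12.4%) and 17.9% had. The CDX site was in 16 HOX windows (10.5%) and 8.92% of all, the GATA site in 11 (7.19%) and 16.4%, and the TCF/LEF site in 3 (1.96%) and 4.04%. HOX windows were GC-rich, with a median GC content of 64% against 50.7% over all regions, and the 7 motifs differ in base composition, so that these shares are a description only.

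The stage labels were checked at TSSs. NANOG, a pluripotency factor, had a TSS peak in both hESC and both MES lists and in none of CP or CM. MYH6, the atrial myosin heavy chain gene, had one in 1 CP and both CM lists and in none of hESC or MES, and TTN, which encodes the sarcomere protein titin, had folds of 7.20 and 11.5 for CP and 8.25 and 8.54 for CM, with 1 weak peak for hESC. By list, both libraries held a TSS peak at 4 of 5 hESC genes for hESC, 4 for MES, 3 for CP and 2 for CM. POU5F1 of that list had a peak in no library, and DNMT3B and LIN28A had one in all 8. Of 5 CP genes, 3 had one in both lists for hESC, 4 for MES, 4 for CP and 5 for CM, with TBX5 in neither CP list. Of 6 CM genes, 2 had one in both lists for hESC, 2, 3 and 4 for the later stages, with MYH7 in no list. All 5 mesoderm and all 3 neural genes had one in both lists of every stage, as had 2 of 3 stromal genes. Of 3 endoderm genes, 2 had one in both lists up to CP and 1 for CM, with AFP in no list, and of 3 endothelial genes none had one in both lists of any stage, with CDH5 in no list. Open TSSs alone did not separate the stages. The second CM library stands apart, with the fewest peaks and a mean background of 2.54 extended reads a position against 3.13 to 4.62 in the others. Next fewest were the 92891 peaks of the first CM library, whose mean background was 4.57.

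Peaks were listed at HOX promoters less often than at promoters at large, and a TSS with a listed peak is called open here. A peak is judged against its local background. That was 1.52 to 2.20 times the library mean at HOX peaks (medians by library) and 1.17 to 1.37 times at all peaks. Its part in the counts was not tested. Both lists of a stage held a peak within 1 kb of the TSS at 15 of the 38 HOX genes for hESC, 16 for MES, 12 for CP and 7 for CM. Of 19970 protein-coding TSSs, 75% had such a peak for hESC, 75.4% for MES, 74.2% for CP and 69.3% for CM. All 8 lists held a peak at 5 HOX TSSs, against 68.1% of protein-coding TSSs, and no list held one at 10, against 16.7%. These shares are a description, and the list was not tested. With any start of a protein-coding transcript of the gene in place of the canonical one, the counts were 21 for hESC, 23 for MES, 18 for CP and 10 for CM, against 76.9%, 77.2%, 76.2% and 71.3% of all genes. By that definition 8 genes were open in all lists, against 70.1%, and 6 (15.8%) in none, against 15.5%, so that the excess of TSSs without any peak was not seen. HOXA3 and HOXB3 had no peak at the canonical TSS and were open in all 8 lists at another start, and HOXC4 likewise went from 4 lists to 8. With 1 library of a stage left out, the rule asks for 1 list. The count was then 23 in hESC without the first hESC library, against 79.1% of all TSSs. It was 19 in CP without the second CP library, against 76.2%. For CM it was 15 without the second CM library, against 75%, but still 7 without the first, against 69.9%. In lists of equal length the counts were 7 for each of the first 3 stages and 5 for CM, against 68.2% to 68.9% of all TSSs. There no list held a peak at 23 canonical HOX TSSs (60.5%), against 23.6% of all TSSs.

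The 5 genes open in all lists at the canonical TSS were HOXA4, HOXA13, HOXB9, HOXD1 and HOXD13, from both ends of the clusters. HOXA4 had the highest folds of them, 7.34 and 6.46 for hESC, 7.92 and 9.59 for MES, 5.15 and 8.70 for CP and 5.95 and 6.07 for CM, so that the CP replicates spanned most of the range. HOXD1, the 3′ gene of its cluster, had 6.72 and 6.15 for hESC, 6.84 and 6.53 for MES, 5.67 and 5.04 for CP and 3.91 and 5.65 for CM. Its 4 hESC and MES values lay above its 4 later ones. HOXB9 lay between 3.36 and 4.32 and HOXD13, the gene of the digits, between 3.91 and 5.44, and neither separated the stages.

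**Figure D1:**
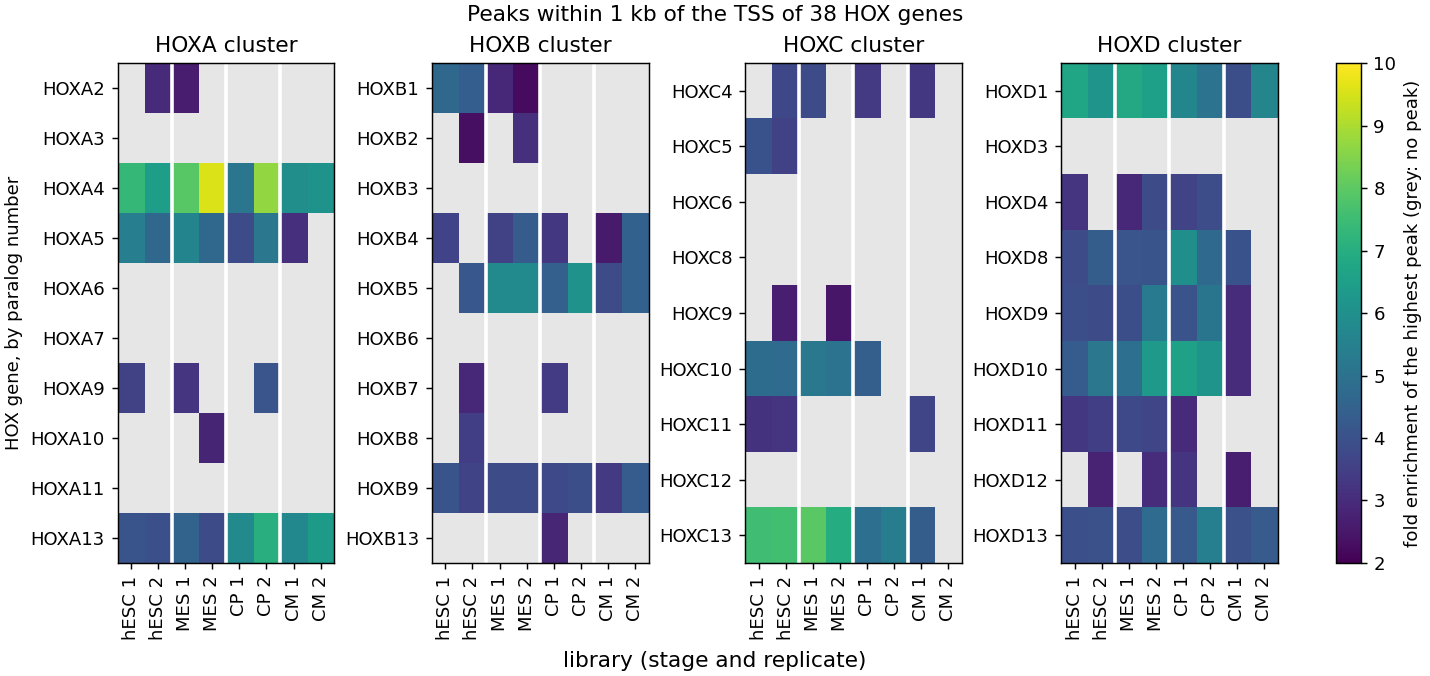
Fold enrichment of the highest peak within 1 kb of each canonical TSS, for 38 HOX genes (rows, by cluster and paralog number) in 8 libraries (columns, 2 a stage), with grey where no peak is listed. HOXA4, HOXA13, HOXB9, HOXD1 and HOXD13 are filled in every column, and the last CM library has the most grey.

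A further 6 genes, HOXA5, HOXB5, HOXC13, HOXD8, HOXD9 and HOXD10, had a TSS peak in 7 lists. For HOXA5, HOXC13, HOXD8, HOXD9 and HOXD10 the missing list was the second CM library, and for HOXB5 the first hESC library. HOXC13, which acts in hair and nail, was the most open HOXC promoter, with 7.54 and 7.57 for hESC, 7.97 and 6.95 for MES, 4.91 and 5.36 for CP, 4.37 in the first CM library and no peak in the second. Both CP values and the CM value lay below all 4 earlier ones. HOXB5 was higher for MES (5.79 and 5.79) than in the hESC list that held it (4.18), with 4.45 and 6.09 for CP and 3.82 and 4.48 for CM, and HOXD10 had 4.33 and 5.16 for hESC, 4.91 and 6.30 for MES, 6.58 and 6.14 for CP and 3.01 in the first CM library.

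Of the paralog groups, the middle one had the most TSSs with no peak in any list, 5 of 11, against 3 of 11 in the first and 2 of 16 in the last. By paralog number, both lists held a TSS peak for 3 of 11 described genes of paralogs 1 to 4 for hESC, 5 for MES, 3 for CP and 3 for CM, for 3, 3, 3 and 1 of 11 genes of paralogs 5 to 8, and for 9, 8, 6 and 3 of 16 genes of paralogs 9 to 13. The genes with no peak at the canonical TSS in any list were HOXA3, HOXA6, HOXA7, HOXA11, HOXB3, HOXB6, HOXC6, HOXC8, HOXC12 and HOXD3. At another transcript start HOXA3 and HOXB3 had one in 8 lists, and HOXC6 and HOXD3 in 5. At any start HOXA6, HOXA7, HOXB6 and HOXC8 of the middle group and HOXA11 and HOXC12 of the last had none. The counts by group thus changed with the choice of start, and the middle group still held the most genes without a peak. By cluster, HOXD had the largest share in the first 3 stages, with 6 of 9 genes for hESC, 7 for MES and 6 for CP, and 2 for CM, where HOXB had 3 of 10. HOXC had 4 of 9 for hESC, 2 for MES, 1 for CP and 0 for CM. The CM counts rest on the second CM library, and without it they were 4, 3 and 8 for the 3 paralog groups in order, 6 of 9 for HOXD, 3 of 10 for HOXB and 3 of 9 for HOXC. Leaving that library out, 75% of all protein-coding TSSs had a peak for CM, against 69.3% with it.

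Other genes had a TSS peak in few lists. HOXC10, a gene of the hindlimb level, had one in both hESC and both MES lists and 1 CP list, with folds from 4.41 to 5.21, and HOXD11, a gene of the forearm and kidney, in the same 5 lists with folds from 2.96 to 3.78. HOXD4 was found in 5 lists, none of CM, HOXB4, a gene of blood stem cells, in 6, and HOXC4 and HOXD12 in 4 each. HOXC5 had a TSS peak only in the 2 hESC lists (4.01 and 3.56). HOXA9, a gene of blood progenitors, and HOXC11 had one in 3 lists, HOXA2, HOXB2, HOXB7 and HOXC9 in 2, and HOXA10, HOXB8 and HOXB13 in 1.

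Of the windows of 1 kb on each side of the TSSs, averaged over all 39 genes by group, peaks covered 15.1% and 22.4% for hESC, 16.9% and 17.8% for MES, 16.0% and 13.2% for CP and 11.6% and 7.92% for CM at paralogs 1 to 4. At paralogs 9 to 13 the values were 17.2% and 29.4%, 18.4% and 24.2%, 17.0% and 14.6%, and 11.7% and 3.04%. The posterior minus the anterior share was largest in the second hESC (6.92 percentage points) and second MES library (6.46), near 0 in the first CM library (0.119) and −4.88 in the second. The difference did not separate the stages beyond the spread of replicates, with an exact permutation p of 0.152 over all groupings of 8 libraries into 4 pairs, which can give no p below 0.00952. At paralogs 5 to 8 the covered share ran from 1.23% in the second CM library to 12.0% in the second hESC library.

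Around HOXB1, a gene of the hindbrain and of the early posterior heart field, regions were both lost and gained. At its TSS the fold was 4.66 and 4.38 in hESC and 2.92 and 2.24 in MES, and no list of CP or CM held a peak. On its 3′ side, the region at 8666 bases (chr17:48522065-48522626) had no peak for hESC, 4.22 in 1 of the 2 MES libraries, 6.56 and 9.85 for CP and 6.22 and 8.61 for CM. The lowest CP or CM value exceeded the MES value, and its −log10 q reached 57.1 in the second CP library. Read as pileup over the library mean, which does not use the local background, the region had 7.49 for MES, 11.8 and 21.1 for CP and 9.15 and 13.3 for CM.

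A region in an exon of HOXB1 (chr17:48529115-48529671) had no peak in any hESC or MES list, 2.94 and 4.57 for CP and 3.55 and 3.52 for CM. A region 16983 bases 3′ of the TSS (chr17:48513781-48514276) had 5.34 and 5.82 in CP and 3.59 in the first CM library, with no peak in the second or in any earlier list. One more, at 2266 bases, appeared in 1 CP list (3.96) and 1 CM list (2.63). Between these, a region 3567 bases 3′ of the TSS had peaks in all 6 earlier lists, from 2.79 to 3.92, and none in CM. The peak at the TSS was thus absent from all 4 CP and CM lists, and the peak at 8666 bases was present in all 4. In lists cut to the length of the shortest, by −log10 q, the region at 8666 bases was in all 4 CP and CM lists and in no earlier one, the exon region was in 3 of those 4, and the TSS region in both hESC lists only.

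**Figure D2:**
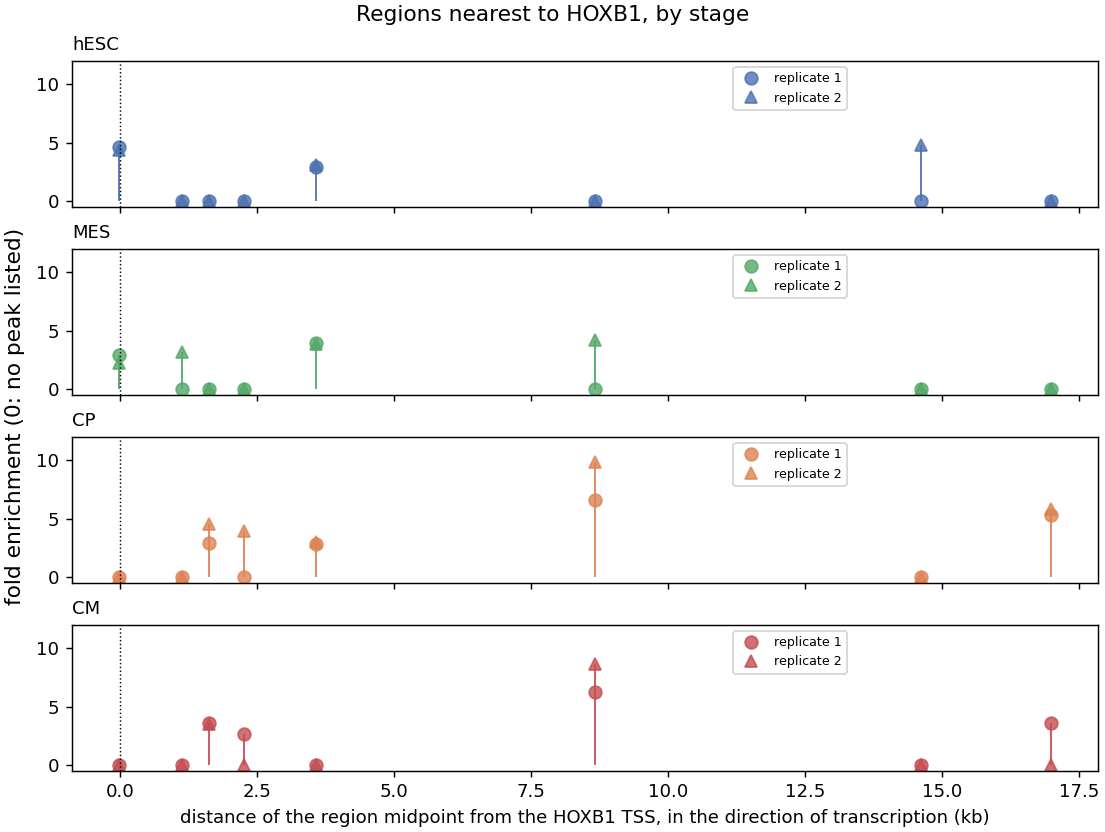
Fold enrichment of the 8 regions nearest to HOXB1 against the distance of their midpoints from its TSS (kb, in the direction of transcription), in 4 rows by stage, with a marker for each of 2 replicates and 0 where no peak is listed. The TSS region is present in hESC and MES only, and the region at 8666 bases reaches 6.22 or more in all CP and CM libraries.

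Over all clusters, regions present in both lists of 1 stage and in neither list of another were counted, beside the share of all 285909 regions that met the same rule. From hESC to MES, 5 of 153 HOX regions were gained (3.27%), against 6.02% of all regions, and 5 were lost, against 3.95%. From MES to CP, 2 were gained (1.31%), against 2.14%, and 6 lost (3.92%), against 6.13%. From CP to CM none was gained, against 1.41%, and 12 were lost (7.84%), against 6.33%. From hESC to CM, 2 were gained, against 3.15%, and 24 lost (15.7%), against 13.5%. Each HOX share lay within a few percentage points of the share of all regions. Without the second CM library, whose list is the shortest, 10 regions were gained from hESC to CM, against 11.8% of all, and 26 lost, against 14.3%, and from CP to CM 8 were gained, against 8.9%, and 13 lost, against 7.08%. Leaving out a library of the stages compared raised most such counts, since fewer lists have to meet the rule, up to 60 lost from hESC to CM without the first hESC library, against 33% of all. In lists of equal length, which hold 68 HOX regions, 6 were lost from hESC to CM (8.82%, against 12% of all) and 4 from CP to CM (5.88%, against 5.17%).

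The gains were few. Both regions gained from MES to CP, at 16983 and 1618 bases, and both gained from hESC to CM, at 8666 and 1618 bases, had HOXB1 as the nearest HOX gene, 8 of the 153 regions being nearest to it. Without the second CM library the gains from hESC to CM were 10, with 4 nearest to HOXB1 and 2 each to HOXB2, HOXB4 and HOXB13. Of the 5 regions gained from hESC to MES, 3 were in HOXD, at HOXD1, HOXD3 and HOXD4, and 2 in HOXB, at HOXB4 and HOXB13. The losses from CP to CM were spread over HOXA (5), HOXB (5) and HOXD (2), and those from hESC to CM over HOXA (8), HOXB (9), HOXC (5) and HOXD (2).

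Regions in both lists of 1 stage and in no list of any other were 4 for hESC (2.61% of HOX regions, 3.01% of all regions) and 2 for MES (1.31% and 2.76%), and there were none for CP or CM (0.729% and 1.05% of all). A single list of 1 stage and no other list held 17 for hESC, 14 for MES, 10 for CP and 5 for CM. Those were 11.1%, 9.15%, 6.54% and 3.27% of HOX regions, against 13.8%, 11%, 8.95% and 6.95% of all regions. The MES region 3′ of HOXD1 (chr2:176192365-176192655) had folds of 4.11 and 5.22, and the other, in an intron of HOXD3, 3.11 and 2.58. The hESC regions lay 4173 bases 3′ of the HOXA5 TSS (3.01 and 3.73), 4387 bases 5′ of HOXA9 (3.45 and 3.27), 254 bases 5′ of HOXC5 (4.01 and 3.56) and 8264 bases 3′ of the HOXD3 TSS (4.09 and 3.85). A region across the edge of the HOXC window, in an intron of FLJ12825, had 6.49 and 7.20 in hESC and 4.35 in 1 MES list, and was in no later list. It is outside the rule for named regions and was chosen after its values were seen.

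A peak in all 8 lists was held by 15 HOX regions (9.80%), close to the 9.83% of all regions, 5 of them in HOXA, 4 in HOXB, 1 in HOXC and 5 in HOXD. These could be compared by their fold enrichment, centred on the median of each library, with limma over the 28115 regions in all lists. From hESC to CM, 2 of the 15 rose and none fell, where 6.28% of all regions rose and 6.04% fell. No HOX region was called from hESC to MES (0.694% of all regions rose and 0.178% fell), from MES to CP (0.245% and 0.21%) or from CP to CM (0.391% and 1.71%). At an unadjusted p under 0.05, 5 HOX regions were higher and 1 lower for CM than for hESC, where 19.3% and 12.5% of all regions were. At that p, 1 was lower for MES than for hESC (3.69% of all), 2 were higher for CP than for MES (4.32%) and 2 higher for CM than for CP (11.2%). The median log2 change of the 15 from hESC to CM was 0.27, beside 0.10 over all 28115. As pileup over the library mean background, which does not use the local background, it was −0.12, beside 0.14 over all, so the sign and the order turned with the measure.

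The region at the HOXA13 TSS, the most 5′ gene of its cluster and one of the limb ends and the urogenital tract, had folds of 4.07 and 3.95 for hESC, 4.54 and 3.87 for MES, 5.78 and 7.05 for CP and 5.73 and 6.35 for CM. All CP and CM libraries lay above all hESC and MES libraries. From hESC to CM it rose by 0.81 on the log2 scale (SE 0.17, limma adjusted p = 0.00801), and the step from MES to CP, 0.64 (SE 0.17), did not pass (adjusted p = 0.132). The region between HOXA7 and HOXA9 had 4.70 and 4.71 for hESC, 5.11 and 5.02 for MES, 5.03 and 5.83 for CP and 6.44 and 7.37 for CM, with both CM libraries on top. It rose by 0.77 from hESC to CM (SE 0.16, adjusted p = 0.00774).

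These calls rest on few libraries and on the scaling. Without centring neither passed (0.59, adjusted p = 0.0868 for HOXA13 and 0.55, adjusted p = 0.0940 for the other). Neither passed without the second hESC library (adjusted p = 0.0719 and 0.0645) or without the second CM library (adjusted p = 0.0575 and 0.0614). The region between HOXA7 and HOXA9 did not pass without the first hESC library either (adjusted p = 0.0505). As pileup over the library mean background the HOXA13 region rose by 0.84 (adjusted p = 0.00294) and the other by 0.45 (adjusted p = 0.0969), and on that measure the HOXD1 TSS region fell by 0.93 (adjusted p = 0.00221) and the region between HOXB9 and HOXB13 fell by 0.60 (adjusted p = 0.0275).

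**Figure D3:**
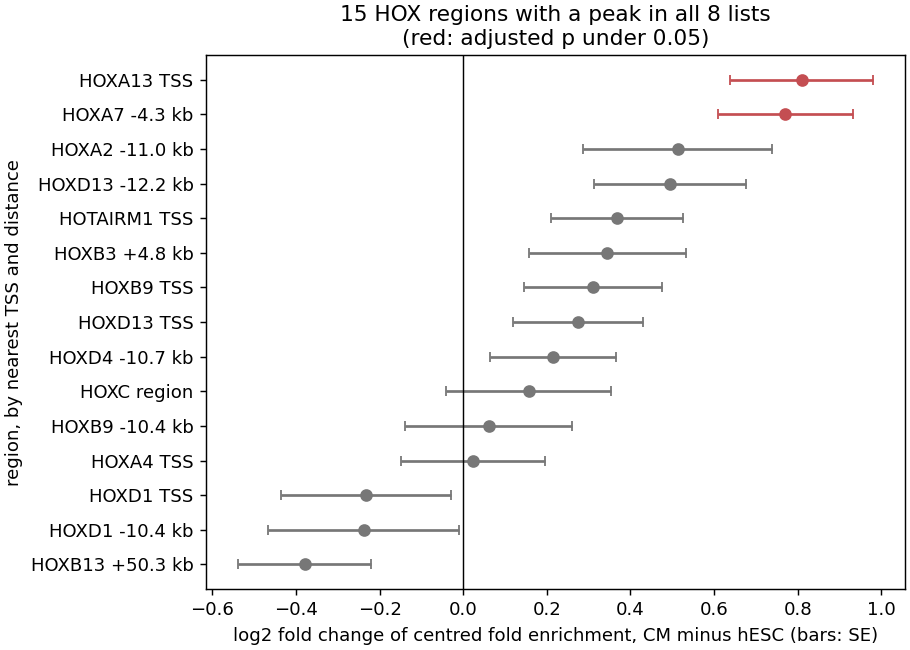
Log2 fold change from hESC to CM, with its SE, of the 15 HOX regions with a peak in all 8 lists, named by the nearest HOX TSS and the distance from it, by the lncRNA gene HOTAIRM1 where its TSS lies in the region, or by the cluster for the HOXC region. The HOXA13 TSS (0.81) and the region 5′ of HOXA7 (0.77) pass the adjusted p of 0.05, and 3 regions lie below 0.

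Among the HOXA regions in all 8 lists, the HOXA4 TSS region had the highest mean fold (2.81 on the log2 scale), while in HOXB and HOXD the highest lay away from HOX TSSs. The HOXB9 to HOXB13 region had 7.98 and 10.2 for hESC, 10.98 and 9.62 for MES, 8.41 and 9.77 for CP and 5.97 and 5.95 for CM, with both CM libraries below the other 6, and its change from hESC to CM was −0.38 (SE 0.16, adjusted p = 0.120). The HOXD3 intron region had 7.57 and 6.51, 8.79 and 8.97, 7.34 and 10.4, and 6.82 and 7.17 in the same order, and its stages overlapped.

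Peaks covered more of the HOX windows than of the genome. In hESC they covered 4.39% and 7.44% of the 682711 bp of the windows and 1.44% and 2.17% of chromosomes 1 to 22 and X, and in the second CM library 1.33% and 0.798%. The ratio of these shares was 3.05 and 3.43 for hESC, 3.22 and 3.15 for MES, 3.13 and 2.49 for CP and 2.46 and 1.66 for CM. Both CM values lay below all others.

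By cluster, the HOXD window held 194 and 219 of each 1000000 peak bases for hESC, 241 and 224 for MES, 186 and 164 for CP and 158 and 96.2 for CM, and both libraries of each stage after MES lay below both of the stage before. The log2 share differed between stages (eta squared 0.765, exact permutation p = 0.00952, which is the smallest that the groupings allow, adjusted p = 0.0476 over 5 tests). The HOXC window held 85.4 and 138 for hESC, 75.8 and 93.4 for MES, 68.9 and 38.98 for CP and 55.7 and 38.3 for CM (eta squared 0.725, exact permutation p = 0.133, adjusted p = 0.167). The HOXA window held 168 to 211 in the first 3 stages and 131 and 111 in CM (eta squared 0.868, exact permutation p = 0.133, adjusted p = 0.167), and the HOXB window 128 to 239 over all libraries (eta squared 0.460, exact permutation p = 0.381). Over the 4 windows together the test gave p = 0.105 by exact permutation (adjusted p = 0.167). With the lists cut to equal length, it gave an eta squared of 0.235 and an exact permutation p of 0.743 (adjusted p = 0.8).

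The HOXD call did not hold when the lists were cut to equal length (eta squared 0.677, adjusted p = 0.452, exact permutation), when they were made stricter (0.788, adjusted p = 0.0714), when bases were not divided by the total (0.731, adjusted p = 0.105) or when any library but the first CM one was left out.

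HOX peaks stood on a raised local background. Their median background was 1.93 and 2.099 times the library mean for hESC, 2.09 and 2.20 for MES, 1.79 and 1.72 for CP and 1.61 and 1.52 for CM, while over all peaks it was 1.17 to 1.37. The HOX values of hESC and MES lay above those of CP, and those of CP above those of CM, in both libraries of each stage. The fold of HOX peaks was lower than that of all peaks in every library, with a median of 3.51 to 5.11 against 4.09 to 5.29, while their pileup was higher, with 5.74 to 8.34 times the library mean against 5.56 to 7.35. Fold enrichment is divided by the local background, so a fall of that background raises the fold, and the values of pileup over the library mean, given above for the HOXA and HOXB1 regions, do not use it.

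At the same regions in each library the values were closer. Over the 15 HOX regions in all lists the median background was 1.98 and 2.31 for hESC, 2.13 and 2.18 for MES, 1.78 and 1.79 for CP and 1.66 and 1.498 for CM, and over all 28115 it was 1.96 and 2.05, 2.07 and 2.09, 1.91 and 2.09, and 1.81 and 1.70. The HOX values lay above those of all regions in hESC and MES and below them in CP and CM.

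**Figure D4:**
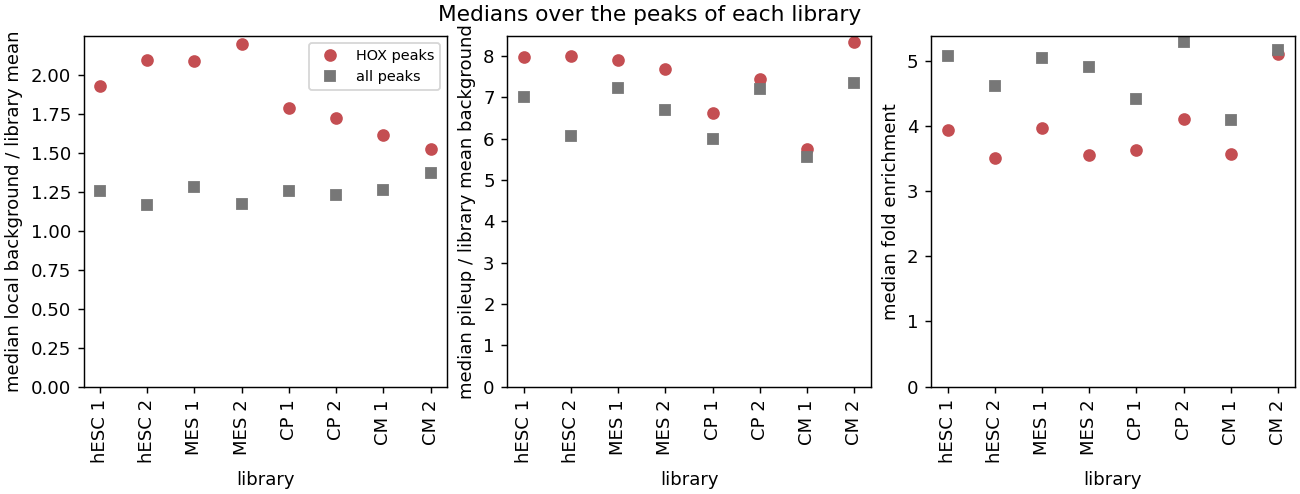
Medians over the peaks of each library, for peaks in the HOX windows (circles) and all peaks (squares), of the local background over the library mean (left), the pileup over the library mean background (middle) and the fold enrichment (right). The HOX background is highest in MES replicate 2 (2.20) and lowest in CM replicate 2 (1.52).

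Among the genes that act with or upstream of the HOX genes, the promoters were mostly open, as promoters at large were. Both lists of a stage held a peak at 69.3% to 75.4% of all protein-coding TSSs, and all 8 lists at 68.1%. The cofactor genes PBX2, PBX3, PBX4, MEIS1, MEIS2, MEIS3, PKNOX1 and PKNOX2, whose products bind DNA together with HOX proteins, each had a TSS peak in both lists of every stage, with PBX3 at 6.08 to 7.37. The CDX genes, which activate central and posterior HOX genes, were all open in both hESC lists. CDX1 stayed so in all 8 lists, CDX2 was in 1 CP list and in none of MES or CM, and CDX4 was missing only from the second CM list. EVX1, beyond the HOXA cluster, had a TSS peak in both MES lists (2.53 and 2.88) and in no other, and EVX2, beside HOXD13, in 1 hESC and 1 MES list.

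Of the 8 lncRNA genes of the clusters, HAGLR, HOTAIRM1 and HOXA-AS3 had a TSS peak in all 8 lists. HAGLR starts in the HOXD1 TSS region and HOXA-AS3 near the HOXA4 TSS, so that their peaks are the same ones. HOXA-AS2 had a peak in all 6 lists before CM, from 3.60 to 6.15, and in none of CM. HOTTIP had none in any list, HOXB-AS3 had one in 6 lists, from 2.76 to 4.56, and HOTAIR and HOXC-AS1 had 1 each in hESC and MES, both in the second replicate.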

How the data were processed

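ATAC-seq peaks of 8 RUES2 libraries were used, 2 at each of 4 stages (day 0, 2, 5 and 14), grouped by the sample labels. The authors mapped reads with BWA-MEM (hg38), retained high-quality primary alignments and dropped duplicates by Picard. They ran MACS2 on every library by itself, with no fragment model and with reads shifted and extended to centre on the cut site. Replicates were not pooled. The submitters' processing notes name BWA 0.7.13, MACS2 2.1.0 and bedtools 2.26.0. The deposited peak lists give a fold enrichment, the ratio of the pileup at the summit to the local background of the same library. They also give deposited −log10 p and −log10 q-values, a display score (not used) and the summit offset. The numbers of reads are not given in the sources used here, so no interval for counting error was made.

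Peaks on chromosomes 1 to 22 and X were merged over the lists. TSSs, exons and introns came from GENCODE for GRCh38, and sequences from that assembly. Pileup and local background, over the mean background of the library, were recovered from the fold and the −log10 p. Regions in all 8 lists were tested with limma 3.58.1 in R 4.3.3, on log2 fold enrichment centred on the median of each library, in 1 fit over all 4 stages, with Benjamini-Hochberg adjustment over 28115 regions and a threshold of 0.05. Other values were computed in Python 3.11.15 with numpy 2.4.6, pandas 2.3.3 and scipy 1.17.1, and plots drawn with matplotlib 3.10.9. Shares of peak bases were compared on the log2 scale by an exact permutation test of eta squared, the part of the variance that lies between stages. Its p is the share of groupings with an eta squared at least as high as the observed one. Checked on simulated data for the comparison of CM with hESC over 28115 regions, the limma step found 0% of 50 planted changes of 0.5 on the log2 scale, 58% of those of 1, 82% of those of 1.5 and 100% of those of 2, with 2 false calls. The planted changes, 50 of each size, were far fewer than the 1767 regions called higher and 1698 called lower in the data. The adjustment is stricter where fewer regions change, so these rates need not hold for the data.

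The HOX genes and the marker and pathway lists were chosen with earlier results of these data known. Regions were named by rule, as up to 3 called regions of largest change in each comparison, the region in all lists with the highest mean fold in each cluster, and up to 3 regions seen at 1 stage only with the highest −log10 q. All listed HOX genes were described by their TSSs. Of the 39 genes 1, of the cofactor genes 1, and 1 sequence named by the rule are not reported here, and the sequences printed are a choice of 7. The alternatives were lists of equal length, stricter lists with a −log10 q of 5 or more, other scalings, missing peaks set to the lowest fold, the replicate number as a block, and each library left out in turn. Counts of open TSSs under other definitions, the block for the paralog comparison and a re-centred fit with missing peaks filled in were chosen after seeing the data. As nothing in the labels says that replicates are separate differentiations, p-values measure the spread between libraries, which may be technical. The labels name no batch.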

Additional observations from a re-analysis of the deposited data

How the results depend on the processing

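Of the 15 HOX regions tested, the 2 calls became 0 without centring, where the median change of all regions from hESC to CM moved from 0.10 to −0.12 on the log2 scale, and ranged from 0 to 2 with 1 library left out (0 without the second hESC or the second CM library). With missing peaks set to the lowest fold, 82 HOX regions of 131956 were tested and there were 81 calls over the 4 comparisons and both directions, as the median of CM was then itself a filled-in value. From hESC to CM 35 were higher and from CP to CM 30, where 46.4% and 45.4% of all regions were. None was lower there (2.59% and 1.36% of all). From hESC to MES 4 were higher and 6 lower (12.6% and 9.35% of all), and from MES to CP 4 and 2 (5.39% and 8.51%). Centred on regions in all lists there were 31 calls, of which 5 higher and 9 lower from hESC to CM, where 9.53% and 20.2% of all regions were called. In that fit 4 were higher and 7 lower from hESC to MES (12.8% and 9.41% of all). From MES to CP 3 were higher and 3 lower (4.45% and 11.6%), and from CP to CM none was called (3.23% and 5.02%). Leaving out 1 library gave changes of 0.77 to 0.85 at HOXA13 and 0.71 to 0.83 between HOXA7 and HOXA9. In stricter lists (137 HOX regions), 3 were gained and 3 lost from hESC to MES, against 6.61% and 4.28% of all regions. In lists of equal length (68 HOX regions), 3 were gained from hESC to MES (7.33% of all), 1 lost from MES to CP (5.67%), 1 gained and 4 lost from CP to CM (4.56% and 5.17%), and 5 gained and 6 lost from hESC to CM (9.06% and 12%). With 1 library left out, gains and losses ran from 5 to 18 and 5 to 21 from hESC to MES, 2 to 8 and 6 to 25 from MES to CP, 0 to 8 and 12 to 29 from CP to CM, and 2 to 10 and 24 to 60 from hESC to CM, and the shares of all regions moved with them, from 3.15% to 11.8% for the gains and from 13.5% to 33% for the losses of the last.

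The HOXD share of peak bases gave an eta squared of 0.731 without division by the total, 0.788 in stricter lists, 0.677 in lists of equal length, and 0.723 to 0.970 with 1 library left out. With the replicate block it was 0.821 (adjusted p = 0.104 by exact permutation) and the paralog comparison 0.643 (exact permutation p = 0.0417, the smallest that 24 groupings allow). The replicate numbers gave no sign of pairing the samples. The difference in centred log2 fold, replicate 1 minus replicate 2 of a stage, correlated between stages at only −0.12 to 0.19. With the block, 2 HOX regions were called. In lists of equal length 7 HOX TSSs were open in hESC, 7 in MES and 7 in CP, against 68.2%, 68.2% and 68.9% of all TSSs. There 3 (7.89%) were open in all lists, against 64%, and 23 (60.5%) in none, against 23.6%. By any transcript start, 8 were open in all lists and 6 in none, against 70.1% and 15.5% of all genes. With 1 library left out, the counts were 15 to 23 in hESC, 16 to 20 in MES, 12 to 19 in CP, 7 to 15 in CM, 5 to 10 in all lists and 10 to 11 in none. The shares of all TSSs were then 75% to 79.1%, 75.4% to 78.4%, 74.2% to 76.5%, 69.3% to 75%, 68.1% to 71% and 16.8% to 17.7% in the same order. The direction of the 2 called changes was the same under every alternative run. The unknown number of reads limits what a missing peak shows.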
